A study of Mus musculus with 36 samples.

Results

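Among the accessible regions of mouse dendritic cells, 59 peaks were chosen because they differed little from the unstimulated level after PAM, SeV or 3',3'-cGAMP alone and more after PAM was combined with SeV or with 3',3'-cGAMP. They were drawn by these values from the 116556 peaks on chromosomes 1 to 19 (119751 peaks in all). The level of a peak was taken as log2(CPM + 0.5), centred on the median of its library, where CPM is the count scaled to a common total over chromosomes 1 to 19 without the peak of the largest count there. The difference d is the mean of a group's 2 libraries minus the mean of the 2 control libraries on this log2 scale. A member has d of at most 0.7 in P, in S and in cG, and d of at least 1.3 in both PS and PcG. The differences in those 5 groups are therefore a description of the choice and no result. The results lie in the groups that the choice did not use, above all the other combinations that contain PAM, which are PScG, PL, PH and PLH.

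The cells were bone marrow-derived dendritic cells, antigen-presenting cells grown from the marrow of female C57BL/6J mice of 6 to 8 weeks (strain given as C57BL/6 in the sample labels) with 15 ng/mL GM-CSF. They were stimulated for 6 h with ligands of pattern recognition receptors and profiled by ATAC-seq, in which a transposase cuts accessible DNA in nuclei and inserts sequencing adapters. The labels abbreviate PAM to P, LPS to L, HMW to H, SeV to S, 3',3'-cGAMP to cG and depleted zymosan to Z, and Ctrl received none. The groups were Ctrl, the single ligands P, L, H, S, cG and Z, the pairs PL, PH, LH, PS, PcG, ScG, ZS and ZcG, and the triplets PLH, PScG and ZScG. Each of the 18 groups had 2 libraries from about 50000 cells each. No label says that the 2 libraries came from separate animals or cultures, so each p-value measures the spread between libraries, which may be technical.

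Pattern recognition receptors sense microbial products. Receptors at the cell surface, such as the one that binds LPS, signal to NF-kappaB and AP-1. RNA viruses and cyclic dinucleotides such as cGAMP are sensed inside the cell by pathways that also activate interferon regulatory factors. Activation of interferon regulatory factors is not confined to the pathways inside the cell. These factors bind promoters and distal enhancers of inflammatory genes, and nucleosomes are moved at many such sites, which makes the DNA there open to the transposase. Accessibility can open before or without a change in the transcription of a nearby gene, and a gene assigned to a peak by position need not be its target.

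The gene nearest to the members with the highest smaller pair difference, the lower of d in PS and in PcG, was Il6, which encodes interleukin-6, a cytokine of the acute inflammatory response. Its promoter is shown here because 2 members lie at the end of the gene and beyond it, while the peak over the promoter itself was not a member. The RefSeq window on GRCm38.p6 is chr5:30012864-30013163 on the plus strand, and capitals mark matches to the motifs searched.

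Il6 promoter: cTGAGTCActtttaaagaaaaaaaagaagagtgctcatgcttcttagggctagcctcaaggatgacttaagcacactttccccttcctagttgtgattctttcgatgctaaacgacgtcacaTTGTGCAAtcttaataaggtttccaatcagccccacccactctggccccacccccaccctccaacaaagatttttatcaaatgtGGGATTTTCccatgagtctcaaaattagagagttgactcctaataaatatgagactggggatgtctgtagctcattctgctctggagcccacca

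Of 12 motifs searched on both strands, 3 had a match in this window. They were AP-1 (TGANTCA; a match was found in 7.81% of 32851 promoter windows of this length), C/EBP (TTGCNNAA; 10.8%) and NF-kappaB (GGGANNTTC; 3.94%). No match was found for ATF/CREB (TGACGTCA), ISRE (GAAANNGAA), ETS-IRF (GGAANNGAA), PU.1 (GAGGAAGT), RUNX (TGTGGTT), STAT (TTCNNNGAA), EGR (GCGTGGG), E-box (CACGTG) or SP/KLF (GGGCGG). One member lay wholly inside a promoter window, and its sequence is shown as the single member for which reference sequence was used here. It is the 200 bp peak at chr1:186587158-186587357, outside protein-coding genes, nearest to Tgfb2, and inside the window of the gene model Gm35546.

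Gm35546 peak, plus strand: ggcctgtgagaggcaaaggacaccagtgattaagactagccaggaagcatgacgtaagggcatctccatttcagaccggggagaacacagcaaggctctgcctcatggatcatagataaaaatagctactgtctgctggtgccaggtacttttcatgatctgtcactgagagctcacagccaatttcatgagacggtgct

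None of the 12 motifs was found in these letters, so no capitals appear. This peak was just inside the choice, with d of 1.3 in PcG and 1.37 in PS.

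Depth limits every value. Libraries held 19097027 to 39977088 counts, and 44.1% to 63.1% of them fell in a single peak over the mitochondrial genome. In Ctrl, Z, ZcG, ScG and ZScG the mean mitochondrial share was 58.3% to 63.0%, against 44.4% to 54.5% in the other 13 groups. All 4 combinations with PAM that are tested here are in the set with the lower share, so any comparison of them with Ctrl, Z, ScG or ZScG also crosses these sets, and the part of the mitochondrial share in such a difference cannot be told apart from that of the ligands. The pairs of groups L and PL, H and PH, and LH and PLH stay within the set. Replicate libraries differed by more than counting noise (chi-square per degree of freedom 2.08 to 3.31). Of the 8 markers of dendritic and myeloid cells, 3 have a gene start in the table used, and all 3 of these (Itgax, Csf2ra and Irf8) had a peak within 500 bp of it, whereas none of the 5 T cell, 3 B cell or 4 erythroid starts had one. A peak was present at 1 of 4 neutrophil starts (S100a8) and 1 of 3 NK starts (Klrb1c). In bulk cells, more cells with an open site and more opening per cell cannot be told apart.

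The members were small and weak peaks. Their median width was 419 bp (200 to 980 bp), and their median level over all libraries was 1.59 CPM (0.641 to 7.00). A control library held 0 to 43 counts at a member (median 4), and a PS or PcG library held 11 to 211 (median 43). The members lie on 17 chromosomes. Of the 59 members, 3 (5.08%) lay within 1 kb of a gene start, against 12.6% of all peaks on chromosomes 1 to 19 and 3.12% of the 5381 peaks with d of at least 1.3 in P. A protein-coding gene body was overlapped by 50.8% of members and by 59.3% of all peaks. Peaks narrower than 500 bp made up 76.3% of members and 57.8% of all peaks. Members were thus mostly distal and narrow, and the 2 at Il6 were the closest neighbours, 3729 bp apart. Exons and introns were not resolved.

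In the 6 groups that chose them, the mean over the 59 members was 0.646 and 0.847 CPM in the 2 Ctrl libraries, 1.15 and 1.4 in P, 1.41 and 1.27 in S, and 1.14 and 1.06 in cG. It was 3.66 and 3.84 CPM in PS, and 3.69 and 3.82 in PcG. The sum of the differences of the 2 single ligands on the log2 scale was below the difference of the pair at all 59 members for both PS and PcG, by a median of 0.84 for each, which the choice largely fixes.

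The groups outside the choice fell into an order. The triplet PScG had a mean of 3.58 and 3.81 CPM, near PS and PcG, whose levels the choice set high. Next came PLH at 2.82 and 2.90 CPM, PL at 2.59 and 2.71, and PH at 2.70 and 2.41, and the libraries of PL and PH overlapped. The groups without PAM were lower, at 2.16 and 2.18 CPM in LH, 2.12 and 2.00 in L, 2.03 and 1.80 in ZScG, and 1.91 and 1.76 in ScG. The libraries of L and ZScG overlapped, as did those of ZScG and ScG. Lower still were ZS (1.5 and 1.95 CPM) and ZcG (1.22 and 1.57), followed by H (1.07 and 1.07) and Z (0.881 and 0.872). In this order PScG, PLH, PL and PH lay above every group without PAM that the choice did not use. They also did so over the 6173 other peaks with d of at least 1.3 in PS and PcG. Group means there were 8.29, 6.93, 6.96 and 6.76 CPM, and the highest of those groups without PAM, ScG, had 6.13. This placing was thus not particular to the members. The choice itself kept P low and PS and PcG high, so their places in the order are no result.

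**Figure D1:**
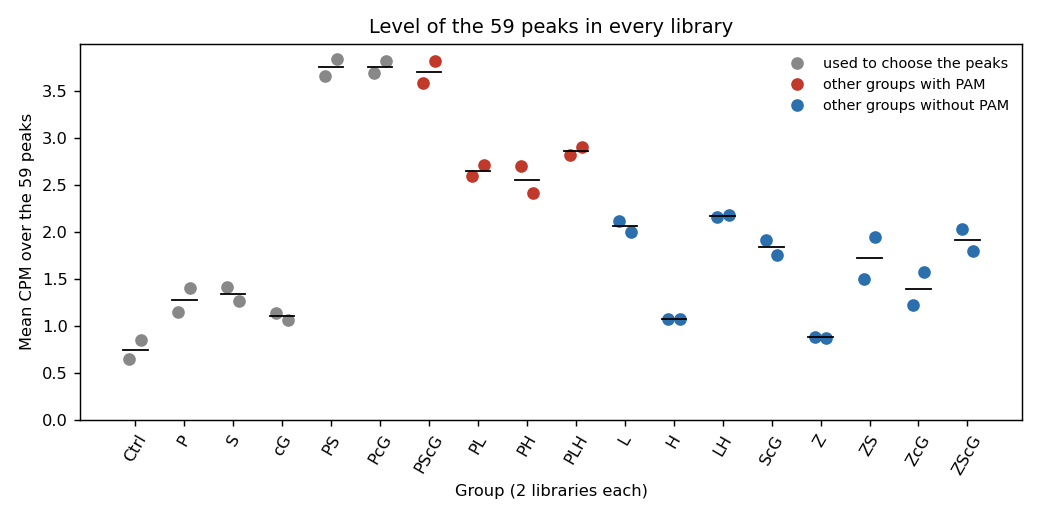
Mean CPM over the 59 peaks (vertical axis) in each of the 36 libraries, by group (horizontal axis); each point is 1 library and the line is the group mean. Groups used for the choice are grey, other groups with PAM are red (2.41 to 3.81 CPM), and other groups without PAM are blue (0.872 to 2.18 CPM).

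Ranked by the median d of single members, PScG and PLH again came first and H and Z last, while neighbours between them changed places. The median d was 1.48 in PScG, 1.3 in PLH, 1.12 in PH and 1.04 in PL. In these groups d was above 0 at 59, 58, 59 and 59 of the 59 members. Among all peaks of chromosomes 1 to 19, d was above 0 at 48.66%, 49.64%, 47.74% and 47.88%. A difference of at least 1.3, the size asked of PS and PcG, was met by 38 members in PScG, 30 in PLH, 18 in PL and 15 in PH. Over the 116556 peaks of chromosomes 1 to 19, that size was met by 9783, 7176, 6897 and 6829. Of the 6173 other peaks with d of at least 1.3 in PS and PcG, it was met by 5428, 4478, 4256 and 3986. These are larger shares than those of the members, so reaching that size was not particular to the members. Without PAM, the median d was 0.99 in ZScG, 0.83 in LH, 0.80 in ScG, 0.77 in L, 0.64 in ZS, 0.59 in ZcG, 0.16 in Z and 0.12 in H. A size of 1.3 was met by 13 members in ScG, 10 in ZScG, 8 in LH, 7 in ZS, 5 in ZcG, 4 in L and none in H or Z, and over all peaks by 7921, 8343, 4804, 6804, 5904, 4585, 1948 and 1969. All of these differences share the control libraries with the choice, so they describe the members and test nothing. They do show that opening was not confined to combinations with PAM, since L, LH, ScG and ZScG also stood above control at most members.

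**Figure D2:**
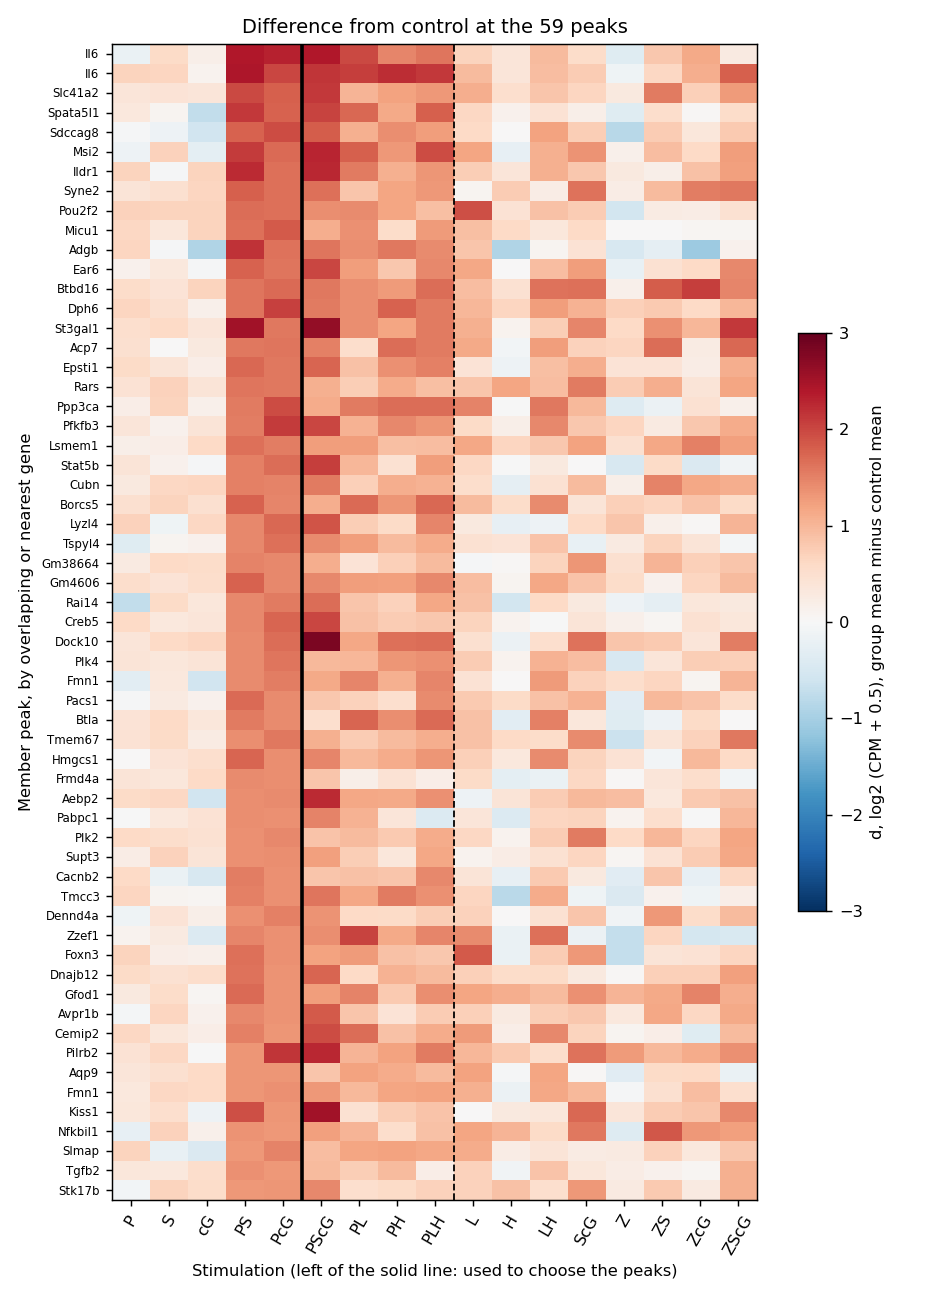
Difference from control d (colour, log2 scale, limits -3 to 3) at the 59 peaks (rows, by overlapping or nearest gene, ordered by the smaller of the PS and PcG values) in 17 stimulations (columns). Columns left of the solid line chose the peaks; PScG, PL, PH and PLH follow, and the groups to the right of the dashed line include paler columns for H and Z, with median d of 0.12 and 0.16.

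Which peaks are members depends on single libraries. When the rule was applied to the replicate 1 libraries alone, it chose 69 peaks, and in the replicate 2 libraries these had a median d of 1.42 in PS and 1.59 in PcG, so the opening in the pairs was seen again. The single ligands were less low: the median d in P was 0.37 where the peaks were chosen and 0.85 where they were measured, in S 0.40 and 0.67, and in cG 0.33 and 0.56. At most 0.7 was met again by 26 of the 69 peaks in P, 35 in S and 40 in cG. All 5 conditions were met in the other replicate by 2 of the 69 peaks. The smaller of the 2 pair differences exceeded every single-ligand difference in 51 of 69 (73.9%), against 9.41% of all peaks in that replicate. The 87 peaks chosen in replicate 2 had medians in replicate 1 of 0.68 in P, 0.79 in S, 0.57 in cG, 1.63 in PS and 1.67 in PcG, and 2 of them met all 5 conditions. At most 0.7 was met again by 45 of the 87 in P, 36 in S and 48 in cG, and the smaller pair difference exceeded every single ligand in 57 (65.5%), against 9.64% of all peaks. The pairs thus stayed above the single ligands at most of these peaks in the other replicate. Each single ligand kept within its limit at 26 to 40 of the 69 and 36 to 48 of the 87. All peaks, the baseline here, include those that no pair opened. The share among other peaks opened in both pairs was not computed, so the chosen peaks are not set apart from those.

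**Figure D3:**
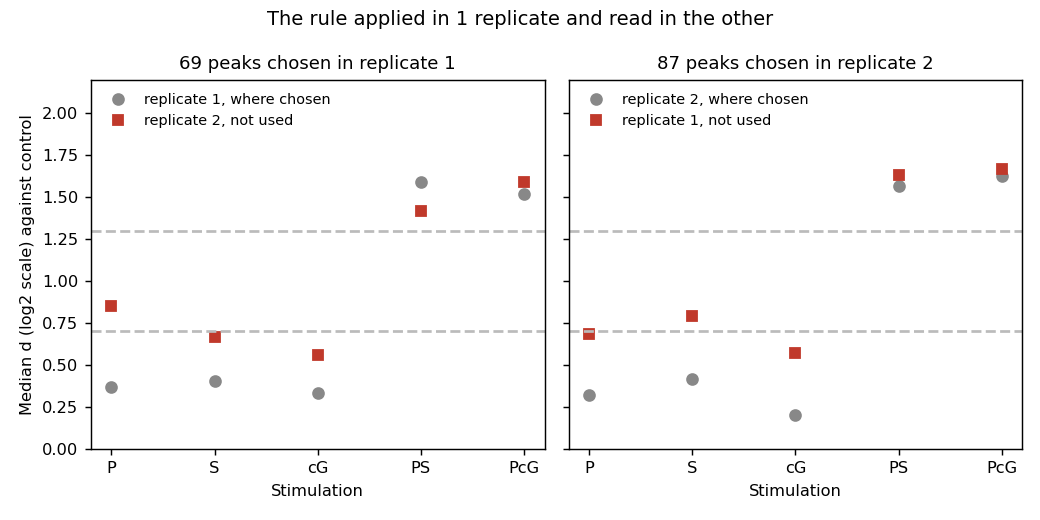
Median d against control (vertical axis, log2 scale) in the 5 stimulations of the rule (horizontal axis) for 69 peaks chosen in replicate 1 (left) and 87 chosen in replicate 2 (right). Grey circles show the replicate that chose the peaks, red squares the other one, and dashed lines the limits of 0.7 and 1.3; the red squares for P, S and cG lie at 0.56 to 0.85, above the grey circles.

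The thresholds cut through a continuum. On the inner side, the Stk17b peak had a smaller pair difference of 1.3, and on the outer side the closest peaks, at Usp25 and Fam168a, had 1.3 and 1.29. For the largest single-ligand difference, the Msi2 and Supt3 peaks were just inside at 0.69 each, and peaks at Eloa and Ctnnbl1 were just outside at 0.70 each. With the single ligands within the limit, 44 peaks had a smaller pair difference from 1.2 to 1.3, against 23 from 1.3 to 1.4.

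The 2 members at Il6 had the highest smaller pair differences of the 59. The first, at chr5:30019052-30019596, lies inside Il6 near its 3′ end (gene at chr5:30013114-30019975, plus strand). It had 0 and 0.116 CPM in Ctrl, 0.595 and 0.378 in P, 0.521 and 0.406 in S, and 0 and 0.276 in cG, against 2.83 and 2.88 in PS and 2.07 and 2.07 in PcG. In groups outside the choice it had 1.81 and 2.55 CPM in PL, 2.28 and 2.52 in PH, 2.67 and 1.86 in PLH, and 2.11 and 2.51 in PScG. The matching groups without PAM had 0.963 and 0.504 CPM in L, 0.166 and 0.445 in H, 0.328 and 1.24 in LH, and 0.343 and 0.656 in ScG. Each of the 4 combinations with PAM therefore lay above its partner without PAM in both libraries. ZScG, at 1.07 and 2.18 CPM, overlapped PScG.

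For this peak, PH exceeded H by a log2 fold change of 2.97 ± 0.71 (SE; edgeR's quasi-likelihood test, adjusted p = 0.00174), a call lost without H replicate 1 (adjusted p = 0.123). The values for PL against L (1.61 ± 0.62 SE, adjusted p = 0.236), PLH against LH (1.57 ± 0.62, adjusted p = 0.282) and PScG against ScG (2.11 ± 0.70, adjusted p = 0.0568) did not pass by edgeR. Both Z libraries had 0 counts here, and with a floor of 3 counts per Z library the peak was at least 5.27-fold higher in PL, 5.80-fold in PH, 5.48-fold in PLH and 5.58-fold in PScG.

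The second member, at chr5:30023325-30023806, begins 3350 bp beyond the gene's end. It had 0.507 and 0.116 CPM in Ctrl, 0.0992 and 0.473 in P, 0.434 and 1.3 in S, and 0.410 and 0.460 in cG, against 6.5 and 2.61 in PS and 3.32 and 4.74 in PcG. It had 4.21 and 4.27 CPM in PScG, against 0.458 and 1.05 in ScG and 0.534 and 0.502 in ZScG. The PScG libraries lay far above all 4 of those libraries. PScG exceeded ScG by a log2 fold change of 2.40 ± 0.58 (SE; edgeR, adjusted p = 0.00329; 0.152 without ScG replicate 1) and ZScG by 2.89 ± 0.64 (edgeR, adjusted p = 0.00114), the latter passing in every alternative that gave an adjusted p. Levels were 2.86 and 3.23 CPM in PL against 0.770 and 1.08 in L, and 2.80 and 1.33 in PH against 0.414 and 0.890 in H. These differences, 1.70 ± 0.54 and 1.65 ± 0.59 (SE), did not pass by edgeR (adjusted p = 0.0938 and 0.0659). PLH had 1.98 and 2.54 CPM against 1.72 and 0.826 in LH, the smallest of the 4 differences (0.78 ± 0.53 SE; edgeR, adjusted p = 0.635).

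Between these members lie 2 broader peaks that the rule left out, with d of 1.93 and 1.49 in P and, at the first, 1.11 in S. The peak at chr5:30020007-30021085 had 0.380 and 0.232 CPM in Ctrl, 3.17 and 2.65 in P, 8.58 and 8.65 in PS, 9.28 and 10.4 in PH and 0.497 and 0.445 in H. PH exceeded H by 4.31 ± 0.44 and PScG exceeded ScG by 2.53 ± 0.39 (log2 fold change, SE; edgeR, adjusted p = 8.03e-16 and 7.3e-07). The peak at chr5:30021251-30023211 had 22.2 and 17 CPM in PS and 20.4 and 22.0 in PScG, against 2.17 and 2.36 in ScG, and PScG exceeded ScG by 3.12 ± 0.31 (SE; edgeR, adjusted p = 5.14e-15). At these better covered peaks PL also exceeded L, by 1.14 ± 0.32 and 1.48 ± 0.26 (SE; edgeR, adjusted p = 0.0474 and 7.72e-05), whereas PLH against LH did not pass at either (0.66 and 0.55; edgeR, adjusted p = 0.413 and 0.396). LH also exceeded H at these 2 peaks, by 3.40 ± 0.47 and 2.47 ± 0.33 (SE; edgeR, adjusted p = 4.86e-09 and 4.04e-09). PH against LH did not pass at either (0.91 and 0.37; edgeR, adjusted p = 0.157 and 0.683). These 2 peaks were singled out after their values were seen. The promoter peak, at chr5:30012594-30013781 over the sequence printed above, was already open in Ctrl (7.98 and 10.7 CPM), with 25.9 and 27.0 CPM in P and 33.9 and 41.6 in PS. There PH exceeded H by 0.44 ± 0.14 (SE; edgeR, adjusted p = 0.0348), and PScG exceeded ScG by 0.37 ± 0.14 (adjusted p = 0.117, not passing). LH exceeded H at the promoter peak as well, by 0.51 ± 0.14 (SE; edgeR, adjusted p = 0.0192).

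**Figure D4:**
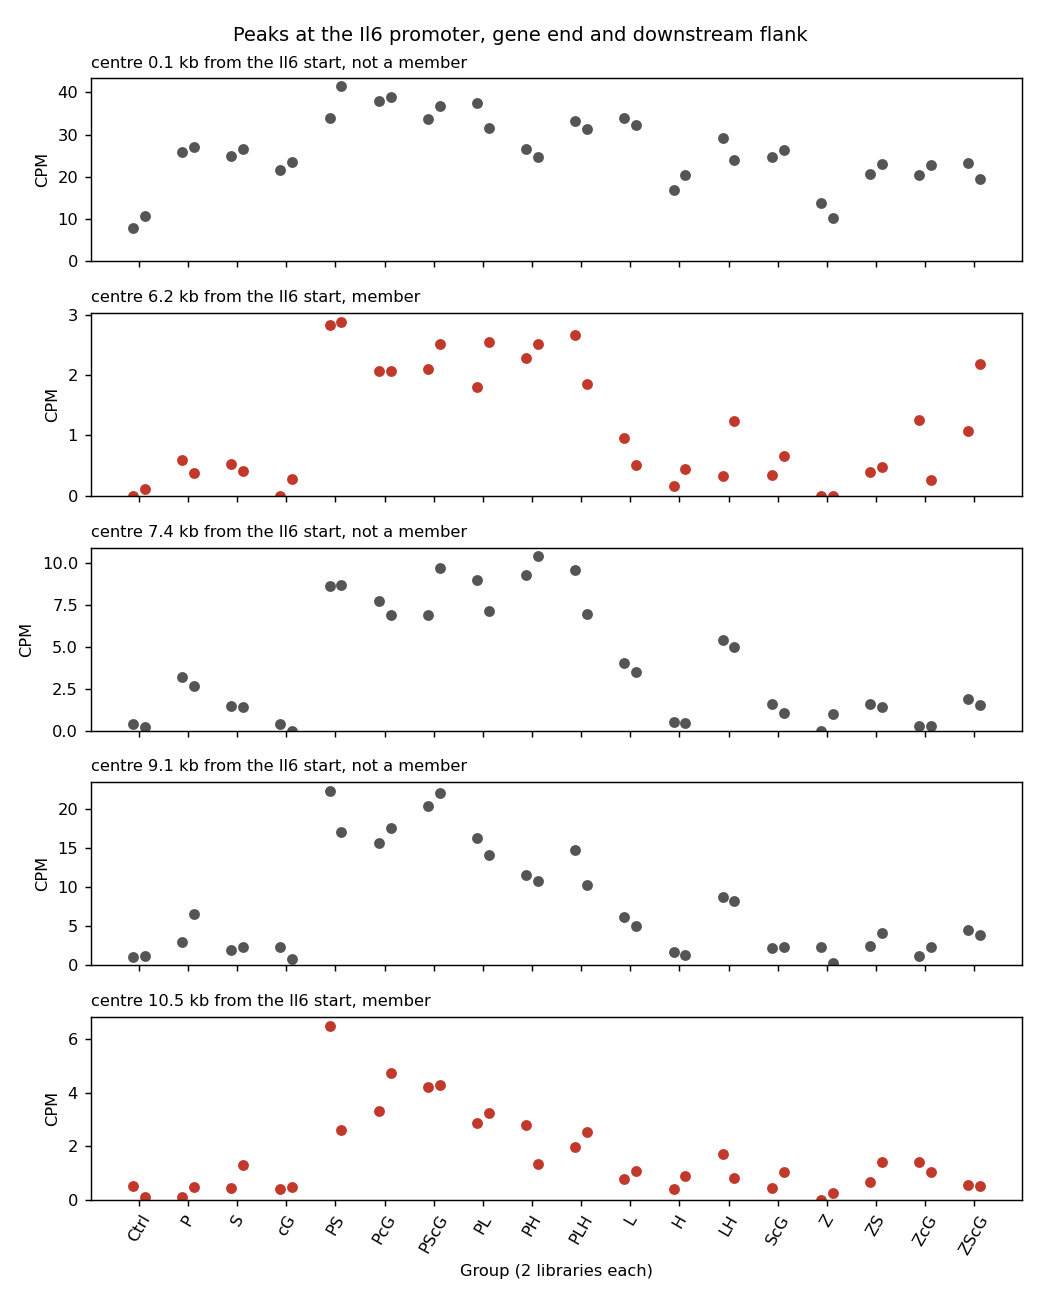
CPM (vertical axes, each starting at 0) in the 2 libraries of each of 18 groups (horizontal axis) at 5 peaks of the Il6 locus, from the promoter (top) to the one farthest downstream of the start (bottom); members are red, other peaks grey. The promoter is open in every group, whereas the peak 7.4 kb from the start has 0.497 and 0.445 CPM in H, 9.28 and 10.4 in PH, and 5.40 and 4.95 in LH.

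Adding PAM was tested against the same ligands without PAM, in libraries that the choice did not use. With PAM added to H, 18 of 59 members were higher and 0 lower (edgeR's quasi-likelihood test, adjusted p-value under 0.05 over 119464 peaks), whereas 5.28% of all tested peaks were called higher and 2.27% lower. With PAM added to ScG, 11 members were higher and 0 lower, beside 2.11% of all tested peaks higher and 2.42% lower. With PAM added to LH, 1 member was higher and 0 lower (0.343% and 0.203% of all tested peaks). With PAM added to L, 0 members were called in either direction (0.765% of all tested peaks higher and 0.362% lower). At an unadjusted p-value under 0.05 edgeR had 8 members higher in PL (6.04% of all tested peaks) and 0 lower (5.29%), and DESeq2 called 0 of the 17 members to which it gave an adjusted p-value.

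The median log2 fold change over the 59 members was 1.22 for PH against H, 0.91 for PScG against ScG, 0.52 for PL against L and 0.43 for PLH against LH. Over all tested peaks these medians lay between -0.04 and 0.007. The fitted change was above 0 at 53, 51, 46 and 51 members, and at 35 members in all 4 contrasts. Over the 119464 tested peaks it was above 0 at 55805, 60326, 59294 and 59932. Over the 6173 other peaks with d of at least 1.3 in PS and PcG it was above 0 at 5160, 4621, 4791 and 4747. The share of all tested peaks above 0 in all 4 contrasts was not computed. The median SE of a single member was 0.52 to 0.58, as large as the median change for PL and PLH, so small changes were not detectable at this depth. The count for PH was 9 without H replicate 1, 10 without H replicate 2 and 11 without PH replicate 1, and the count for PScG was 5 without ScG replicate 2. Of the peaks that P alone opened (d of at least 1.3 in P), 46.7% were called higher for PH and 15.3% for PScG, beside 30.5% and 18.6% of the members. Of the 6173 other peaks with d of at least 1.3 in PS and PcG, 35% were called for PH and 13% for PScG. For PL and PLH, 7.69% and 2.64% of those other peaks were called, beside 0 and 1.69% of the members. Calls with PAM added were thus not particular to the members, and the differences between these shares were not tested.

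**Figure D5:**
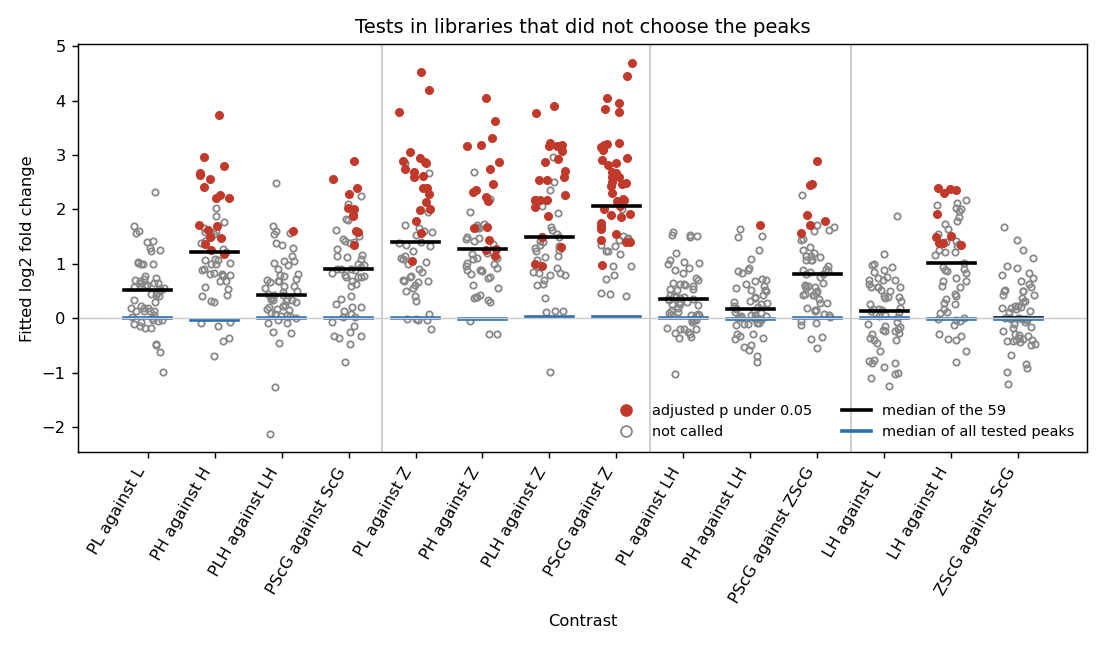
Fitted log2 fold change (vertical axis) of each member in 14 contrasts (horizontal axis) between groups that did not choose the peaks; filled red points have an adjusted p-value under 0.05 in edgeR, black bars are medians of the 59 members (0.009 to 2.06) and blue bars medians of all tested peaks. The Il6 member with 0 counts in Z is left out of the 4 contrasts with Z.

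Of the members, 25 were called higher in at least 1 of these 4 contrasts and 5 in 2 of them, beside 6.79% of all tested peaks called in at least 1 and 1.48% in at least 2. These 5, chosen on this test, were the peaks nearest to Spata5l1, Tmcc3, Rai14, Zzef1 and Pfkfb3, all outside protein-coding genes. The Tmcc3 peak (chr10:94637982-94638477; Tmcc3 encodes a membrane protein of the endoplasmic reticulum) had 0.829 and 1.45 CPM in H and 8.14 and 7.78 in PH. It had 1.83 and 2.10 CPM in ScG and 9.36 and 7.62 in PScG. The libraries with PAM were several times higher than those without in both comparisons. The log2 fold changes were 2.81 ± 0.37 and 2.00 ± 0.35 (SE; edgeR, adjusted p = 3.4e-10 and 1.74e-05), and both passed in every alternative that gave an adjusted p. Yet LH, with 6.71 and 4.95 CPM, was also above H, by 2.38 ± 0.38 (SE; edgeR, adjusted p = 9.65e-07).

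The Spata5l1 peak (chr2:122626890-122627395; Spata5l1 encodes an ATPase of the AAA family) was the single member called for PLH. It had 5.17 and 4.5 CPM in PLH against 1.39 and 1.75 in LH, a log2 fold change of 1.61 ± 0.43 (SE; edgeR, adjusted p = 0.0422), and leaving out any of the 4 libraries ended this call (adjusted p = 0.175 to 0.334). In PScG it had 5.50 and 6.04 CPM against 1.14 and 1.05 in ScG, a change of 2.28 ± 0.47 (SE; edgeR, adjusted p = 0.000341) that passed in every alternative that gave an adjusted p. The groups with PAM did not overlap those without it in either comparison.

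The Zzef1 peak (chr11:72933760-72934244) had 3.33 and 3.11 CPM in PH against 0.829 and 1.11 in H, and 4.68 and 3.44 in PScG against 1.03 and 0.787 in ScG. It was also high without PAM wherever LPS was given, at 3.76 and 4.25 CPM in L and 3.36 and 7.02 in LH. PH exceeded H by 1.71 ± 0.47 (SE; edgeR, adjusted p = 0.00914; 0.176 without H replicate 1 and 0.0583 without PH replicate 1). PScG exceeded ScG by 2.03 ± 0.50 (SE; edgeR, adjusted p = 0.00417; 0.0861 without ScG replicate 2 and 0.0726 without PScG replicate 1).

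The Pfkfb3 peak (chr2:11464556-11465265; Pfkfb3 encodes an enzyme that speeds glycolysis) had 5.60 and 6.00 CPM in PH against 2.74 and 1.56 in H, and 8.66 and 9.48 in PScG against 3.89 and 2.76 in ScG. The changes were 1.37 ± 0.36 and 1.34 ± 0.35 (SE; edgeR, adjusted p = 0.00595 and 0.00838). Without H replicate 2 or PH replicate 2 the first had an adjusted p of 0.175 or 0.0563, and without ScG replicate 2 or PScG replicate 2 the second had 0.165 or 0.0877. At the Pfkfb3 peak LH, with 5.32 and 6.40 CPM, was also above H, and the libraries of LH and PH overlapped. The Rai14 peak (chr15:10743921-10744400; Rai14 encodes a protein that binds actin) had 1.4 and 1.41 CPM in PH against 0.249 and 0.334 in H, and its changes of 2.22 ± 0.73 for PH and 1.88 ± 0.60 for PScG (SE; edgeR, adjusted p = 0.0378 and 0.0443) were the least secure. The first was lost without any single H or PH library (adjusted p = 0.116 to 0.274 by edgeR), and the second without either ScG library or PScG replicate 1 (0.194 to 0.412).

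Other members were called in 1 of the 4 contrasts. The Adgb peak (chr10:10442360-10442778, inside Adgb, which encodes androglobin) had the largest fitted change of the 59 for PH against H, with 4.11 and 3.93 CPM in PH against 0.249 and 0.334 in H. The log2 fold change of 3.73 ± 0.60 (SE; edgeR, adjusted p = 4e-07) passed in every alternative that gave an adjusted p. This peak was also the single member called for PH against LH, where LH had 1.64 and 0.722 CPM. That change was 1.71 ± 0.47 (SE; edgeR, adjusted p = 0.0407), and without PH replicate 1, PH replicate 2, LH replicate 1 or LH replicate 2 the adjusted p was 0.228, 0.166, 0.0993 and 0.514.

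The Slc41a2 peak (chr10:83217236-83218215; Slc41a2 encodes a magnesium transporter) had 9.48 and 13.1 CPM in PScG against 4.35 and 2.62 in ScG, a change of 1.59 ± 0.32 (SE; edgeR, adjusted p = 0.00021) that passed in every alternative that gave an adjusted p. PL and L overlapped at this peak, at 4.28 and 5.64 against 5.39 and 4.97 CPM. The Dock10 peak (chr1:80719940-80720507, inside Dock10) had 2.28 and 2.07 CPM in PH against 0.580 and 0 in H, a change of 2.67 ± 0.68 (SE; edgeR, adjusted p = 0.00347; 0.172 without H replicate 2). It had 6.79 and 4.55 CPM in PScG, above PS (1.83 and 1.74) and PcG (1.80 and 2.84). The Dph6 peak (chr2:114570955-114571537, inside Dph6, an enzyme gene of diphthamide synthesis) had 10.3 and 9.56 CPM in PH against 3.73 and 4.90 in H, a change of 1.19 ± 0.27 (SE; edgeR, adjusted p = 0.00103; 0.0959 without H replicate 1).

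The Msi2 peak (chr11:88634737-88635206, inside Msi2, which encodes an RNA-binding protein) had 2.19 and 2.30 CPM in PH against 0.663 and 0.222 in H, a change of 2.2 ± 0.57 (SE; edgeR, adjusted p = 0.0045; 0.141 without H replicate 2). The Sdccag8 peak (chr1:177015049-177015585, inside Sdccag8, a centrosomal protein gene) had 4.46 and 3.48 CPM in PH against 1.24 and 1.11 in H, a change of 1.70 ± 0.44 (SE; edgeR, adjusted p = 0.00505). That call was lost without H replicate 1 (adjusted p = 0.0698), H replicate 2 (0.0701) or PH replicate 1 (0.0763). LH exceeded H at both peaks as well, by 1.92 ± 0.59 and 1.52 ± 0.45 (SE; edgeR, adjusted p = 0.0391 and 0.0328).

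Some members with high pair differences were called in none of the 4 contrasts. The Pou2f2 peak (chr7:25128843-25129295, inside Pou2f2, which encodes the transcription factor Oct-2) was highest with LPS alone, at 8.47 and 5.55 CPM in L against 5.52 and 4.03 in PL. The Ear6 peak (chr14:51866270-51866811, near a ribonuclease gene) had 2.79 and 2.67 CPM in L against 3.14 and 2.96 in PL. The Btbd16 peak (chr7:130826255-130826719) had 3.16 and 5.20 CPM in PScG against 4.35 and 3.41 in ScG. Its control libraries differed widely, at 0.127 and 2.32 CPM. The St3gal1 peak (chr15:67514973-67515366, 338027 bp from St3gal1, a sialyltransferase gene) had 3.86 and 4.37 CPM in PScG and 1.83 and 1.05 in ScG, a change of 1.4 ± 0.54 (SE; edgeR, adjusted p = 0.127) that did not pass.

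At the 4 members with the lowest summed change, no change with added PAM was detectable by edgeR in any of the 4 contrasts. They were inside Nfkbil1 (chr17:35229812-35230084), Rars (chr11:35832184-35832661), Stk17b (chr1:53765402-53765787) and Pacs1 (chr19:5269536-5269823). Rars encodes arginyl-tRNA synthetase, Stk17b a serine/threonine kinase and Pacs1 a protein-sorting factor. At the Nfkbil1 peak, PH had 0.963 and 1.04 CPM against 1.33 and 1.89 in H, and PScG had 2.34 and 1.67 against 2.17 and 2.62 in ScG. At the Rars peak, H alone had 2.32 and 3.56 CPM and ScG had 4.00 and 3.28, where PS had 4.42 and 3.75, and the libraries of ScG and PS overlapped.

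The groups with PAM were also compared with groups in which another ligand took its place. Between PL and LH, 0 members were called higher (0.221% of all tested peaks), with 7 members at an unadjusted p-value under 0.05 in edgeR (4.57% of all tested peaks) and 0 of 20 with an adjusted p-value in DESeq2. Between PH and LH, the Adgb peak alone was called (0.601% of all tested peaks). Between PScG and ZScG, 7 members were higher (3.12% of all tested peaks), a count that was 4 without PScG replicate 2 and 3 without ZScG replicate 2. Of the other peaks with d of at least 1.3 in PS and PcG, 2.71% were called for PL, 5.04% for PH and 15.5% for PScG. The shares of members were 0, 1.69% and 11.9%. The medians over members were 0.35 for PL, 0.17 for PH and 0.81 for PScG. With an SE of 0.52 to 0.56 for a single member, equality was not shown.

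Of the 3 contrasts that combine ligands without PAM, 1 had calls among the members. LH against H had 10 members higher (16.9%), with 2.65% of all tested peaks. The share was 20.2% of the other peaks with d of at least 1.3 in PS and PcG. The median change over members was 1.02, beside the 1.22 of PH against H, which shares the H libraries. Without H replicate 1, H replicate 2, LH replicate 1 or LH replicate 2 the count was 4, 6, 6 or 5. LH against L had 0 members higher (0.0251% of all tested peaks; 5 members higher and 2 lower at an unadjusted p-value under 0.05 in edgeR, beside 4.11% of all tested peaks in each direction, and DESeq2 gave none an adjusted p-value), with a median of 0.13. ZScG against ScG had 0 members higher (0.324% of all tested peaks; 4 members at an unadjusted p-value under 0.05 in edgeR, beside 5.28% of all tested peaks, and 0 of 2 with an adjusted p-value in DESeq2), with a median of 0.009.

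The effect of adding PAM differed with its partner at a few members, in contrasts chosen after the data were seen. The effect on L was smaller than that on H at 3 members, at Acp7, Adgb and Tmcc3 (edgeR, adjusted p-value under 0.05), while 0.755% of all tested peaks were called in that direction. The effect on H exceeded that on LH at 3 members, at Aqp9, Btla and Tmcc3 (1.68% of all tested peaks). Between the effects on L and on LH, 0 members were called (0.00586% of all tested peaks higher and 0.0377% lower), with a median difference of -0.07. With a median SE of 0.76 for a single member, equality was not shown. The median over all 59 members was -0.70 for L minus H and 0.87 for H minus LH. Over the 6173 other peaks with d of at least 1.3 in PS and PcG, these medians were -0.37 and 0.44. Of those other peaks, 6.64% were called lower for L minus H and 11.9% higher for H minus LH. The share of members was 5.08% in each. Such calls were thus not particular to the members, and the differences between these shares were not tested.

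Against Z, a single ligand that the choice did not use and that left the members near control, the combinations with PAM were higher at many members. The counts were 42 for PScG (12.0% of all tested peaks), 25 for PLH (7.57%), 22 for PL (6.78%) and 19 for PH (5.84%), and 16 members were called in all 4, as were 2.74% of all tested peaks. Of the other peaks with d of at least 1.3 in PS and PcG, 64.9%, 46.7%, 43.6% and 39.5% were called. The shares of members were 71.2%, 42.4%, 37.3% and 32.2%. Median log2 fold changes over members were 2.06, 1.5, 1.4 and 1.27, the same with the Il6 peak at its bound. These 4 contrasts share the Z libraries, and Z differs from all 4 groups in mitochondrial share, so the parts of that share and of the ligands cannot be told apart.

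Among 8 lists of inflammatory genes, 1 list held members, the cytokines and chemokines, through the 2 Il6 peaks. No list was tested, so which lists held members is a count and no result. Of all 119464 tested peaks, 459 were assigned to the cytokine and chemokine list. Of these 459 peaks, 92 were called higher and 3 lower for PH against H by edgeR. The counts were 56 and 1 for PScG against ScG, 25 and 1 for PL against L, and 9 and 1 for PLH against LH. Over all tested peaks, 5.28% were higher and 2.27% lower for PH, and 2.11% and 2.42% for PScG. These shares were 0.765% and 0.362% for PL, and 0.343% and 0.203% for PLH. The list of TLR2 and NF-kappaB signalling genes had 420 peaks and no member, with 75 higher and 7 lower for PH. It had 30 and 4 for PScG, 15 and 2 for PL, and 10 and 1 for PLH. The list of interferon-induced genes had 155 peaks and no member, with 5 higher and 3 lower for PH, 1 and 1 for PScG, 1 and 5 for PL, and 1 and 7 for PLH.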

How the data were processed

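The submitters deposited 1 table of raw counts per peak for 36 ATAC-seq libraries and 1 list of peak positions. Per the submitters' processing notes, the build was mm10 and the tools were Bowtie2 2.2.9, MACS2 1.4, bedtools and featureCounts. Whether peaks were called on pooled libraries, how duplicate reads were handled and whether read ends were shifted for transposase binding are not given in the sources used here. Reads carry no molecular identifiers.

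From the counts the authors deposited, CPM was computed over chromosomes 1 to 19 without the peak of the largest count there (chr1:24611386-24616337, which took 13.2% to 28.0% of the counts outside the mitochondrial peak), with a pseudocount of 0.5. The mitochondrial peak was left out of the tests. After TMM scaling, the model was fitted with edgeR 4.0.16 (R 4.3.3; filterByExpr with a minimum count of 10, trended dispersion without values for single peaks, glmQLFit with robust estimation, glmQLFTest) with all 36 libraries in 1 fit and 18 residual degrees of freedom. Benjamini-Hochberg adjustment of p-values ran over 119464 peaks in each of 14 contrasts and 3 added differences, and the threshold was 0.05. Each SE was derived from the test, as the absolute log2 fold change divided by the square root of the F statistic. The fit was tested on simulated data. DESeq2 1.42.0, other scalings, filters and left-out libraries were alternatives.

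Peaks were assigned to the gene they overlap or the nearest gene end in a GRCm38.p6 RefSeq table. The members, gene lists, motifs and tests were chosen with earlier results of these data known. Members were named by a rule: the 12 with the highest smaller pair difference among those with a mean of at least 1 CPM and with all PS and PcG libraries above both controls, the 8 called in most of the 4 contrasts that add PAM, those assigned to a listed gene, and the 4 with the lowest summed change. Sample titles name the count columns, and 0 columns stayed unused.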

Additional observations from a re-analysis of the deposited data

Results flagged for a closer look

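At 5 members, the test of the difference itself found that adding PAM had unequal effects with different partners. These differences of log2 fold changes were added after the data were seen and tested with edgeR's quasi-likelihood test over all peaks. Their causes were not tested.

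The Tmcc3 peak was called in both comparisons. Adding PAM changed it by 2.81 on H, 0.66 on L and 0.25 on LH (log2 fold changes), so the effect on L was lower than that on H by -2.15 ± 0.49 (SE; edgeR, adjusted p = 0.00514) and the effect on H was higher than that on LH by 2.56 ± 0.48 (SE; edgeR, adjusted p = 8.61e-05). The first difference was lost without H replicate 1 (adjusted p = 0.163), L replicate 2 (0.0597) or PL replicate 2 (0.0747), and the second passed in every alternative that gave an adjusted p.

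The Adgb peak changed by 3.73 on H and 0.71 on L, a difference of -3.01 ± 0.77 (SE; edgeR, adjusted p = 0.0205). It was lost without any of L replicate 1, both H libraries, both PL libraries or PH replicate 1 (adjusted p = 0.0513 to 0.196), and with libraries thinned to the shallowest (0.171). The Acp7 peak (chr7:28646024-28646331; Acp7 encodes an acid phosphatase) changed by 2.63 on H and -0.98 on L, a difference of -3.61 ± 0.92 (SE; edgeR, adjusted p = 0.01865). Its L libraries held 2.79 and 0.720 CPM. Without L replicate 1 the difference was -2.40 (adjusted p = 0.448), and it was also lost without either H library, either PL library or PH replicate 1 (adjusted p = 0.05455 to 0.1505) and with thinning (0.0778).

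The Btla peak (chr16:45273775-45274225; Btla encodes an inhibitory receptor of lymphocytes) changed by 2.26 on H and 0.21 on LH, a difference of 2.05 ± 0.61 (SE; edgeR, adjusted p = 0.0419). It was lost without either H library, PH replicate 2, either LH library or either PLH library (adjusted p = 0.0899 to 0.245), and with thinning (0.112). The Aqp9 peak (chr9:71179244-71179957; Aqp9 encodes a channel for water and glycerol) changed by 1.25 on H and -0.25 on LH, a difference of 1.5 ± 0.37 (SE; edgeR, adjusted p = 0.007195; 0.0895 without H replicate 1 and 0.0705 without LH replicate 2).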

How the results depend on the processing

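The number of members was the least stable value. It was 95 with a pseudocount of 0.1 CPM (13 of the 59 shared), 19 with 2 CPM (1 shared), 7 with limits of 0.5 and 1.5, 463 with limits of 0.9 and 1.1, and 69 to 87 with 1 replicate left out (11 and 19 shared). Keeping the largest peak of chromosomes 1 to 19 in the CPM, chosen after the data were seen, gave 59 members, of which 30 were shared. Counts of members called higher were within 1.5 times the reported count in 157 recomputations and not in 25. The 157 include counts of 0 that stayed at 0, in contrasts with no member called. Those contrasts were PL against L, PL against LH, LH against L and ZScG against ScG. With thinning or DESeq2 the count was 0 for PLH against LH and for PH against LH, and with abundance-dependent offsets it was 0 for PLH against LH. DESeq2 gave 5 of 13 members with an adjusted p-value for PScG against ScG and 3 of 17 for PScG against ZScG. The cause of these shifts was not tested, beyond the missing adjusted p-values in DESeq2. With each library left out in turn, the counts were 9 to 18 for PH against H, 5 to 9 for PScG against ScG, 0 for PLH against LH, for PH against LH, for PL against L, for PL against LH, for LH against L and for ZScG against ScG, 3 to 7 for PScG against ZScG, 4 to 6 for LH against H, 16 to 20 for PL against Z, 14 to 18 for PH against Z, 17 to 23 for PLH against Z and 29 to 35 for PScG against Z. In these fits the lone library of a group is assumed to vary like the other groups. Named calls that passed lost significance in 153 recomputations and kept it in 1081. Named values that did not pass gained it in 2 and stayed short of it in 71, and no named value changed sign.

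No shared shift of libraries with the same replicate number was seen over the tested peaks. Their deviations from the group means had correlations of -0.04 to 0.03. This cannot show whether such libraries shared an animal or culture, since a small shared effect could be hidden by noise. With the number as a replicate block, the counts were 18 for PH, 1 for PLH, 11 for PScG and 0 for PL when PAM was added, and 8 for PScG against ZScG.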
